A study of Mus musculus with 12 samples.

Results

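The comparison described here sets the 2 libraries labelled Skp1aKO at 9.5 days post coitum (dpc) against the 2 wild-type (wt) libraries of the same stage, in poly(A)-selected RNA-seq of mouse embryos. The 4 libraries were taken by their titles from 12 labelled libraries, of which 11 were analysed. The wt libraries at 9.0 dpc and the wt libraries labelled PI at 9.5 dpc, 2 of each, served to tell a change in the Skp1aKO libraries from a low or high value of the wt 9.5 dpc pair alone. The label Skp1aKO names a knockout of Skp1a, while no promoter, Cre driver, allele or strain is given for it. The words "PI", "cont", "lot" and "mb" of the titles are not spelled out and are used as written. The source is embryo, while the growth note names medium for ES cells and embryoid bodies, and the tissue taken is not stated. Each group has 1 library of lot 1 and 1 of lot 2. Whether the lots were separate embryos or pools is not labelled, so p-values reflect only how far these libraries differ, and that spread may be technical. The title of the series concerns a role of SKP1A in the breakdown of the Polycomb complex PRC2 and in the activation of genes that Polycomb keeps silent.

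SKP1 is the adaptor of SCF ubiquitin ligases. It joins the cullin CUL1 and the RING protein RBX1 to an F-box protein, which picks the substrate, and NEDD8 attached to the cullin switches the ligase on. PRC2 places methyl marks on lysine 27 of histone H3 through EZH2, with EED and SUZ12 as core partners, and PRC1 marks histone H2A and compacts the same genes. In the neural tube of this stage both complexes hold back regulators of patterning and of neuronal fate. Protein levels and histone marks were not measured in these libraries.

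Skp1a, which lies on chromosome 11 between 52231995 and 52246858 (plus strand, GRCm38), was at 205 and 216 CPM in the Skp1aKO replicates. CPM are counts normalised to library depth, here scaled by TMM, a method that equalizes libraries on the bulk of their genes. The wt 9.5 dpc libraries had 839 and 1084 CPM, the wt 9.0 dpc libraries 1079 and 1312, and the wt PI libraries 1035 and 1234. Both Skp1aKO values lay below all 6 wt values, and the groups did not overlap. The log2 fold change of Skp1aKO against wt at 9.5 dpc was -2.19 ± 0.18 (SE), with an adjusted p of 3.47e-07. Skp1a was however also low in the libraries labelled Skp1acont, with 307 CPM in Skp1acont replicate 1 and 278 CPM in Skp1acont PI replicate 1. These values lay between those of Skp1aKO and wt, nearer to Skp1aKO, and the difference between Skp1aKO and Skp1acont was not tested; a count summed along the gene cannot tell a partial deletion.

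The 2 kinds of library differed in makeup, and these values stand beside every result. Total counts were 3601338 and 3017451 for Skp1aKO and 3392251 and 9217568 for wt at 9.5 dpc. Genes of the mitochondrial genome took 10.2% and 8.72% of the counts in Skp1aKO and 2.44% to 4.01% in the 6 wt libraries, while ribosomal protein genes took 5.96% and 5.67% against 12.7% to 16.1%. The background rate was read from chemoreceptor genes, which belong to sensory cells of later life. Relative to the library with the lowest rate, it was 7.26 and 9.37 for Skp1aKO and 1.14 and 1.25 for wt at 9.5 dpc. Across genes, log2 CPM correlated with r = 0.962 between the Skp1aKO libraries. The Skp1acont libraries of lot 1 lay in between, with 5.98% and 7.3% mitochondrial and 9.3% and 9.18% ribosomal protein counts and background rates of 3.18 and 3.32, and Skp1acont replicate 2 lay past Skp1aKO with 15.8%, 3.41% and 15. The part of these differences in any result was not tested.

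Of 17019 genes tested with edgeR's quasi-likelihood test, 11490 (67.5%) passed an adjusted p of 0.05, with 6131 higher (36.0%) and 5359 lower (31.5%) in Skp1aKO. These shares are the background against which each gene group below is to be read, beside the shares by expression level that follow. Both Skp1aKO libraries lay above all 6 wt libraries for 5544 of the higher genes (32.6% of those tested) and below all 6 for 4666 of the lower genes (27.4%). Called or not, 38.1% of tested genes lay above all 6 and 30.7% below. Most called genes had this property, so counts of list members beyond all wt libraries are to be read beside these shares. A further 297 genes called higher (1.75%) had Skp1aKO levels inside, or on the other side of, the range of the wt 9.0 dpc and wt PI libraries. They are termed low in wt at 9.5 dpc alone. The reverse held for 446 genes called lower (2.62%), termed high in wt at 9.5 dpc alone. Both classes are also called set by wt at 9.5 dpc. The range spans both other wt groups, so either group can still differ from Skp1aKO, as wt PI does for Sst and Dbx1. The remaining 537 called genes fell in between. Against wt at 9.0 dpc the test called 6433 genes higher (37.8%) and 5515 lower (32.4%), and against wt PI 6260 (36.8%) and 5505 (32.3%). The 3 comparisons use the same Skp1aKO libraries and are not independent.

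The direction of the calls depended on how strongly a gene was expressed and on its length. Among 9265 protein-coding genes with a mean of at least 10 CPM in either group, 1954 were higher (21.1%) and 4753 lower (51.3%), with a median log2 fold change of -0.53. Lists made mainly of genes at that level are to be read against these values. The 6439 protein-coding genes under 10 CPM had a median of 1.36, with 3458 higher and 456 lower. Increases named below for genes under 10 CPM are to be read beside that median. Of 809 tested chemoreceptor genes 711 were higher and 0 were lower, and of 872 processed pseudogenes 428 were higher and 111 lower. Among the genes of at least 10 CPM the median went from -1.30 in the fifth of shortest transcripts to 0.05 in that of the longest. With an offset for GC content and transcript length these were -0.65 and -0.67. The scaling also moved the split: TMM gave 53.4% of calls as higher with a median log2 fold change of 0.18 over all genes, library totals 74.9% with a median of 0.85, and the GC and length offsets 46.5% with a median of -0.09. The text therefore also counts the calls that were made in the same direction under 5 scalings (TMM, library totals, DESeq2 size factors, TMM after background subtraction, and TMM with GC and length offsets). Over all genes these were 2708 higher (15.9%) and 2790 lower (16.4%), together 47.9% of the calls.

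**Figure D1:**
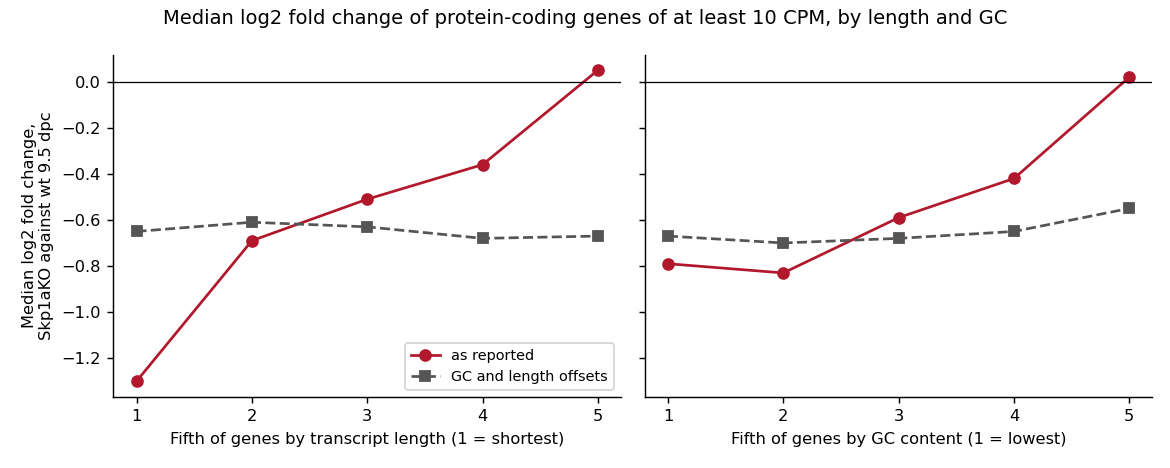
Median log2 fold change of Skp1aKO against wt at 9.5 dpc (vertical axis) in 5 equal groups of the 9265 protein-coding genes of at least 10 CPM, ordered by transcript length (left) or GC content (right); red circles are the values as reported and grey squares those with GC and length offsets. The reported median climbs from -1.30 to 0.05 with length, while the squares on the left stay between -0.61 and -0.68.

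Genes of the SCF ligase and of related cullin ligases were mostly lower. Of 29 tested members, Skp1a included, 20 were lower and 2 higher, 13 and 0 of them under all 5 scalings. The median log2 fold change was -0.98, against 0.18 over all genes and -0.53 over protein-coding genes of at least 10 CPM. At that level, where 28 of the members lay, 51.3% of protein-coding genes were lower. All 20 that fell lay below all 6 wt libraries, as did 4666 of the 5359 genes called lower over all genes. Rbx1, the RING subunit that recruits the ubiquitin-loaded enzyme, had 194 and 156 CPM in Skp1aKO, 830 and 998 in wt at 9.5 dpc, 1139 and 1234 in wt at 9.0 dpc and 872 and 864 in wt PI. Its Skp1aKO values were each below all 6 wt values, and the log2 fold change was -2.39 ± 0.17 (adjusted p = 1.09e-07). Cul1, the scaffold of the SCF complex, had 66.2 and 48.2 CPM against 164 and 189 (-1.63 ± 0.19). Nedd8, the modifier that activates cullins, had 136 and 115 CPM against 352 and 471 (-1.72 ± 0.18). Fbxo11, an F-box gene, had 25.2 and 27.7 CPM against 134 and 168 (-2.51 ± 0.19), the largest decrease of the list. Skp2, whose F-box protein targets the cell-cycle inhibitor p27, fell by 1.68 on the log2 scale, and its partner Cks1b was at -2.13. Some cullins of other ligase families fell too, Cul2 with -1.57, Cul3 with -1.61 and Cul4b with -1.96. Cul4a was instead called higher (0.51, adjusted p = 0.0367), with 0.23 when Skp1aKO replicate 1 was left out. The substrate receptor genes Btrc (0.48) and Fbxw11 (-0.14) did not pass the test. Ube2m, which encodes an enzyme that conjugates NEDD8, was higher with 26.7 and 22.3 CPM against 7.62 and 12.8 (1.22 ± 0.27), while its wt 9.0 dpc and wt PI libraries reached from 13.3 to 23.6. Library totals gave 14 lower and 9 higher, lot as a block 20 and 4, and leaving out wt 9.5 dpc replicate 2 gave 18 and 1.

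Under TMM, genes of the PRC2 core and of most partners were lower, while Ezh1, Phf1, Phf19 and Epop were higher. With GC and length offsets 2 members were called higher, and Epop was not among them. Of 13 tested members 8 were lower and 4 higher, with 5 and 1 under all 5 scalings, and the median was -0.96. All 8 lower members were among the 10 of at least 10 CPM. At that level 51.3% of protein-coding genes were lower, with a median of -0.53. Ezh2, the methyltransferase, had 160 and 171 CPM in Skp1aKO, 418 and 426 in wt at 9.5 dpc, 311 and 349 in wt at 9.0 dpc and 287 and 293 in wt PI (log2 fold change -1.35 ± 0.15, adjusted p = 4.3e-06). Eed, which binds the methylated histone, had 33.5 and 39.6 CPM against 115 and 137 at 9.5 dpc, with 135 and 162 at 9.0 dpc and 124 and 151 in wt PI (-1.78 ± 0.18, adjusted p = 2.02e-06). Suz12, the scaffold of the complex, had 71.5 and 82.6 CPM against 175 and 163, with 100 and 119 at 9.0 dpc and 107 and 120 in wt PI (-1.13 ± 0.16). All 3 core genes were therefore below all 6 wt libraries. The gap of Suz12 was narrower against wt at 9.0 dpc (-0.51 ± 0.16, adjusted p = 0.0125), and with Skp1acont replicate 2 in the fit its adjusted p at 9.5 dpc was 0.0702. The histone-binding subunit gene Rbbp7 (-1.82 ± 0.16) and Mtf2, whose product guides PRC2 to CpG islands (-1.55 ± 0.17), also fell. The largest increases were of Phf1 and Phf19, whose proteins guide PRC2 to CpG islands as MTF2 does, at low levels: Phf19 had 3.09 and 3.38 CPM against 0.331 and 0.645, and at most 0.582 in the other wt libraries (2.51 ± 0.60). Ezh1, the alternative methyltransferase gene, had 6.62 and 7.2 CPM against 2.65 and 2.71 (1.36 ± 0.29, adjusted p = 0.00117) and was above all 6 wt libraries. The median of all protein-coding genes under 10 CPM was 1.36 as well, and among PRC2 members of at least 10 CPM 1 was higher. Epop, an accessory factor gene, was higher under TMM (55.8 and 48 CPM against 22.5 and 28.5, 1.01 ± 0.18) and at -0.04 with GC and length offsets. Library totals gave 5 lower and 5 higher, and Skp1acont replicate 2 in the fit 4 lower and 3 higher.

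PRC1 genes did not move as a group. Of 21 tested members 7 were lower and 5 higher, with a median of -0.13; library totals gave 4 lower and 12 higher, and GC and length offsets 11 and 1. Without wt 9.5 dpc replicate 2 a lone member was called higher, and without Skp1aKO replicate 1 there were 3. Bmi1, a core PCGF subunit gene, had 28 and 38.3 CPM in Skp1aKO, 190 and 189 in wt at 9.5 dpc, 92.9 and 107 in wt at 9.0 dpc and 108 and 112 in wt PI. It was the member with the largest decrease (-2.51 ± 0.18, adjusted p = 1.07e-07), and its wt level was itself highest at 9.5 dpc. Rnf2, the main ubiquitin ligase gene of PRC1, had 78.4 and 91.6 CPM against 181 and 204 (-1.18 ± 0.18). Among other chromatin genes, Kdm6b, which encodes a demethylase of the PRC2 mark, had 41.5 and 25.4 CPM against 6.29 and 5.94, with 6.51 to 11.7 in the other 4 wt libraries (2.46 ± 0.28, adjusted p = 7.78e-06). This placed Kdm6b opposite to Ezh2, Eed and Suz12. The chromatin list as a whole, 43 genes, had 13 higher and 14 lower with 2 and 4 under all 5 scalings; library totals gave 28 and 4 and GC and length offsets 2 and 27, so it is given no direction. Its lower count was 9 without wt 9.5 dpc replicate 2.

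**Figure D2:**
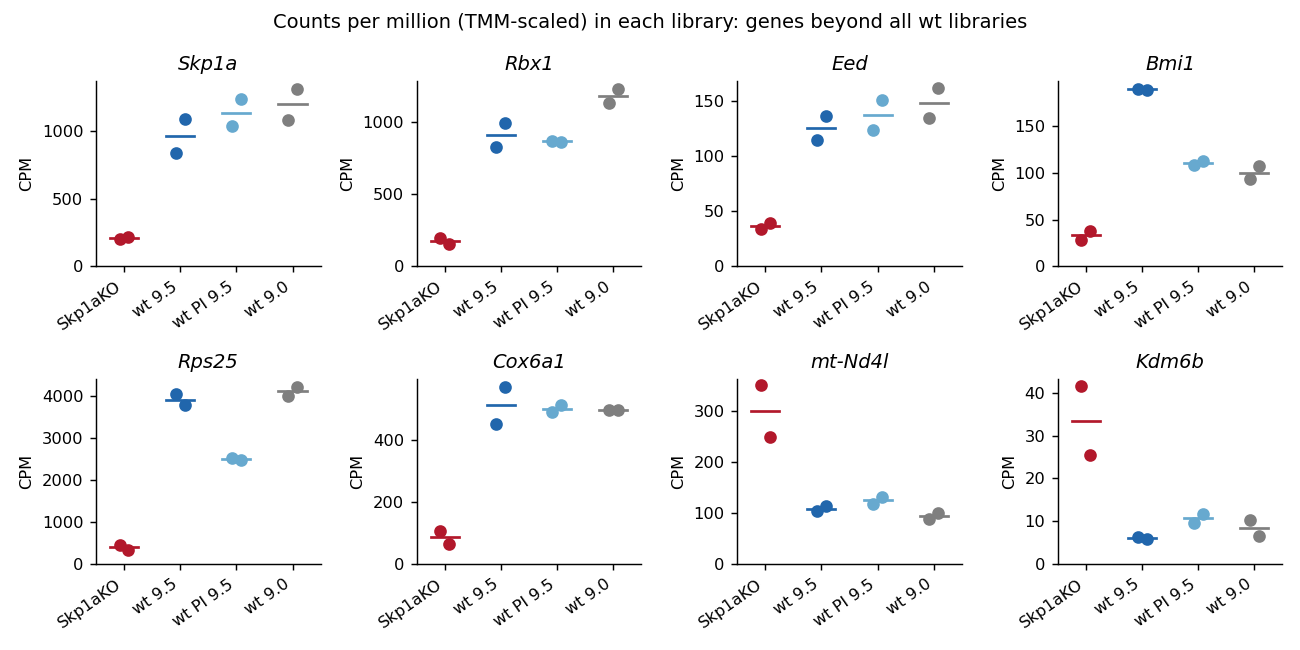
TMM-scaled CPM (vertical axis, linear, starting at 0) of 8 genes in each of the 2 Skp1aKO, 2 wt 9.5 dpc, 2 wt PI and 2 wt 9.0 dpc libraries; points are libraries and lines group means. In every panel both Skp1aKO points lie outside the 6 wt points, below them for Skp1a, Rbx1, Eed, Bmi1, Rps25 and Cox6a1 and above them for mt-Nd4l and Kdm6b.

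Genes of the ribosome, of oxidative phosphorylation and of the proteasome were mostly lower. Their lists had the 3 lowest median log2 fold changes under TMM, but not with GC and length offsets, where the endothelial list (-1.18) was lowest. The respiratory chain is built from subunits of 2 genomes: most are encoded in the nucleus and imported, and the rest are transcribed inside the organelle. Of 34 tested nuclear-encoded members 31 were lower and 0 higher, all 31 below all 6 wt libraries and 26 under all 5 scalings, with a median of -2.02. Their median transcript length was 1404 bases, and with GC and length offsets the median was -1.05. The 3 members that did not pass were Cox5a (-0.22), Sdhc (-0.15) and Sdhd (0.44). Leaving out any library left 0 or 1 member higher.

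Promoters of 3 of these genes are printed here because nuclear respiratory factor 1 (NRF1) is a known regulator of the group and its motif recurs in them. RefSeq (GRCm38.p6) gave a promoter, from 250 bases before to 50 after the start, for 25 of the 34 genes. The motif, GCGCA, then any base (N), then GCGC, searched on both strands, was present in 8 of these 25 promoters (32.0%), in 6 of 62 matched ribosomal protein promoters (9.68%) and in 1402 of 27025 promoters of all genes (5.19%). The ETS-type motif CCGGAAGT was present in 1 of the 25 (4.0%), in 12 of the 62 (19.4%) and in 4.31% of all. A match is a description of these letters and does not show binding. The 250 bases before the start are shown for the genes that were lower under all 5 scalings, have a lone annotated promoter and hold a whole NRF1 motif there; capitals mark the motif. They are Cox6a1 on chr5:115348959-115349208, Sdha on chr13:74350241-74350490 and Ndufa8 on chr2:36049339-36049588, all on the minus strand.
Cox6a1: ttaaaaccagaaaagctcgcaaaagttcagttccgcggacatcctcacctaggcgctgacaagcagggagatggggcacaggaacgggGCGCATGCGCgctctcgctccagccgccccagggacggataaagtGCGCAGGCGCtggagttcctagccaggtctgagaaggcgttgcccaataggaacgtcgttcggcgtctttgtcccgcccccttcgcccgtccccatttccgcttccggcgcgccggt
Sdha: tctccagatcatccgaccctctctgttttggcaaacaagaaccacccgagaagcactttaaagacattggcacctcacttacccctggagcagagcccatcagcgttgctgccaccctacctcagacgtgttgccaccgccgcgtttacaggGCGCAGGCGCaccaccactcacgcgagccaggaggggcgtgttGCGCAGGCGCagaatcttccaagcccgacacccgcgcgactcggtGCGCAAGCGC
Ndufa8: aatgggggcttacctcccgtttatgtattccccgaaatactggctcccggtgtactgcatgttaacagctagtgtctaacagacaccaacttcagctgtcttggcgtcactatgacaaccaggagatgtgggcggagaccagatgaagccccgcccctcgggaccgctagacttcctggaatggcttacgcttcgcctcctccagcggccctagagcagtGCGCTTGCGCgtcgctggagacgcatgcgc
Cox6a1, a subunit gene of cytochrome c oxidase with the motif starting 162 and 117 bases before its start, had 108 and 65.3 CPM in Skp1aKO, 452 and 574 in wt at 9.5 dpc, 499 and 499 in wt at 9.0 dpc and 492 and 513 in wt PI (-2.56 ± 0.22, adjusted p = 9.26e-07). Sdha, the flavoprotein gene of succinate dehydrogenase with 3 motifs, had 63.3 and 73.6 CPM against 163 and 176 (-1.31 ± 0.16, adjusted p = 1.04e-05). Ndufa8, a subunit gene of complex I with its motif 30 bases before the start, had 43.9 and 43.2 CPM against 107 and 133 (-1.47 ± 0.17, adjusted p = 7.06e-06). In these 3 genes each Skp1aKO value was below each wt value. Sdhd, which holds 1 motif in its upstream sequence, did not pass the test (0.44). The 3 largest decreases of the list were those of Atp5j, Ndufa4 and Cox7a2, which hold no NRF1 motif in this window. Atp5j, an ATP synthase subunit gene, had 138 and 117 CPM against 1671 and 1491 (-3.63 ± 0.17), Ndufa4, a small subunit gene of the chain, 185 and 154 against 1489 and 1406 (-3.09 ± 0.17), and Cox7a2, of cytochrome c oxidase, 147 and 130 CPM against 1140 and 1152 (-3.05 ± 0.16).

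Transcripts of the mitochondrial genome went the other way under TMM. Of 13 tested protein-coding members 10 were higher and 0 lower, the 10 being above all 6 wt libraries and called under all 5 scalings. The median log2 fold change was 0.70 for the 13 mitochondrial members, beside the -2.02 of the nuclear-encoded members. With GC and length offsets the mitochondrial median was 2.77, with 13 of 13 higher. mt-Nd4l had 349 and 249 CPM in Skp1aKO against 104 and 113 in wt at 9.5 dpc, with 88.9 to 132 in the other 4 wt libraries (1.47 ± 0.18, adjusted p = 1.15e-05). mt-Nd5 had 1753 and 1707 CPM against 664 and 732 (1.31 ± 0.16), and mt-Co1, a core subunit gene of cytochrome c oxidase, 7485 and 6131 against 2728 and 3554 (1.12 ± 0.19). The Skp1aKO and wt values of these 3 genes did not overlap. mt-Atp6 had 15553 and 9604 CPM against 12212 and 9292 (0.23 ± 0.22, adjusted p = 0.364), and its values overlapped. With Skp1acont replicate 2 in the fit, the library with the highest mitochondrial share of all (15.8%), 1 of the 13 was called higher, and leaving out a library gave 8 to 12, with 1 lower without Skp1aKO replicate 1.

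Of 80 tested cytosolic ribosomal protein genes 77 were lower and 0 higher, all 77 below all 6 wt libraries. Of these, 57 were lower under all 5 scalings, and library totals called 67 lower and 2 higher (75 and 2 without Skp1aKO replicate 2). The median was -1.85, and -0.89 with GC and length offsets at a median transcript length of 1100 bases. Rps25 had 456 and 343 CPM in Skp1aKO, 4046 and 3794 in wt at 9.5 dpc, 4015 and 4226 in wt at 9.0 dpc and 2526 and 2491 in wt PI (-3.30 ± 0.18, adjusted p = 1.66e-08). Rps7 had 460 and 395 CPM against 3074 and 4164 (-3.08 ± 0.20). The members did not fall evenly: Rpl8 had 728 and 618 CPM against 524 and 647 (0.20 ± 0.17), Rpsa 1346 and 884 against 911 and 1121 (0.13 ± 0.20), and Rplp2 was at -0.37, none past the test. Ribosomal protein genes have many processed copies in the genome, so counts of a member can include or lose reads of its copies.

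Among 25 translation factor genes 17 were lower and 2 higher, 12 and 2 under all 5 scalings, with a median of -1.04; with Skp1acont replicate 2 in the fit 8 were lower, and the higher count was 1 when either wt 9.5 dpc replicate was left out. Eif4e, the cap-binding protein gene, had 109 and 99.3 CPM against 403 and 507 (-2.12 ± 0.18), and Eif2s1, the regulated subunit gene of the initiation factor that brings the first tRNA, 76.6 and 93 against 333 and 428 (-2.17 ± 0.20). Eif4g1, the scaffold that joins the cap-binding protein to the ribosome, went up, with 86.1 and 87.8 CPM against 22.5 and 21.3 and 29 to 36.8 in the other 4 wt libraries (1.99 ± 0.17, adjusted p = 3.14e-07). Of 33 proteasome genes 27 were lower and 2 higher, 20 and 2 under all 5 scalings, with a median of -1.43. With GC and length offsets the median was -0.75 for the proteasome genes and -0.65 for the translation factor genes. Under the same offsets it was -0.65 over protein-coding genes of at least 10 CPM. Psma1, a subunit gene of the catalytic core, had 108 and 109 CPM against 636 and 810 (-2.74 ± 0.19). Psmd3, of the regulatory lid, had 80.3 and 71.1 CPM against 29.8 and 28.9 and was above all 6 wt libraries (1.37 ± 0.16). Psmd13, of the lid as well, was also higher (1.39 ± 0.26) but had 64.4 and 85.5 CPM in wt PI, inside which its Skp1aKO values of 80.8 and 64.4 lay.

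**Figure D3:**
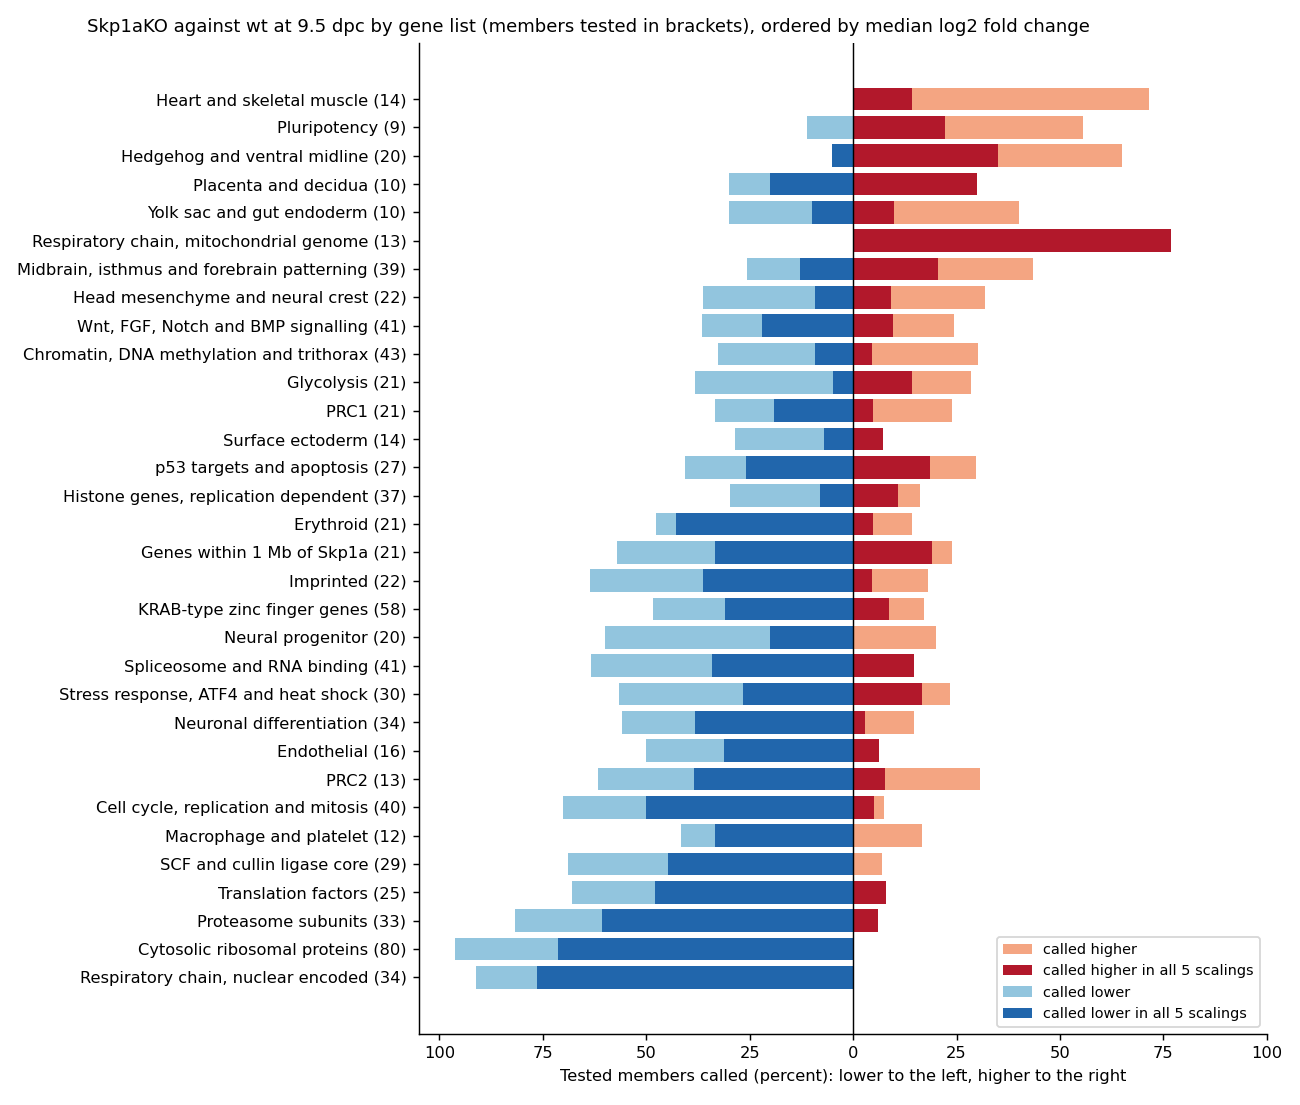
Share of the tested members of each gene list called lower (bars to the left) or higher (bars to the right) in Skp1aKO against wt at 9.5 dpc, in percent, with the number tested in brackets and the share called under all 5 scalings in dark colour. Lists are ordered by median log2 fold change, from nuclear-encoded respiratory chain genes (31 of 34 lower) at the bottom to heart and muscle genes (10 of 14 higher, 2 under all 5 scalings) at the top.

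Genes of the cell cycle were mostly lower. Of 40 tested members 28 were lower and 3 higher, 20 and 2 under all 5 scalings, with a median of -0.97; 27 of the 28 lay below all 6 wt libraries. Pcna, the sliding clamp of replication, had 285 and 309 CPM in Skp1aKO, 1083 and 1116 in wt at 9.5 dpc, 974 and 1146 in wt at 9.0 dpc and 1003 and 1128 in wt PI (-1.89 ± 0.16, adjusted p = 3.95e-07). Mcm2, of the replicative helicase, had 47.9 and 42.3 CPM against 124 and 131 (-1.50 ± 0.16), and Ccnb1, the mitotic cyclin, 87.6 and 88 against 275 and 348 (-1.83 ± 0.19). Birc5, a mitotic survival gene, had 61.6 and 70.5 CPM against 307 and 419 (-2.46 ± 0.19). Ccne2, whose cyclin is a substrate class of SCF ligases, had 32 and 47.7 CPM against 165 and 190 (-2.16 ± 0.21), while the related Ccne1 did not pass (0.04). Plk1, the mitotic kinase gene, was higher with 49.7 and 51.3 CPM against 17.9 and 16.8, and above the 29.3 to 40.7 CPM of the other wt libraries (1.55 ± 0.17, adjusted p = 3.09e-06). The p53 target and cell-cycle inhibitor Cdkn1a was higher too, with 12.1 and 11.3 CPM against 3.64 and 5.94 (1.22 ± 0.29). Myc (0.33), Ccnd1 (0.13) and Top2a (-0.27) did not pass. With Skp1acont replicate 2 in the fit 17 members were called lower.

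Neural markers were present in every group. Many neural genes called lower were in Skp1aKO inside or above the joint range of the wt 9.0 dpc and wt PI libraries. The neural markers Sox2 (108 and 130 CPM), Otx2 (199 and 185), En1 (56.5 and 60.8), En2 (64.9 and 71.6) and Nes (70.4 and 55.8) were all present in the Skp1aKO libraries, as was the neuronal Tubb3 (117 and 59). Otx2, Nes and Tubb3 did not differ past the test from wt at 9.5 dpc. Of 34 neuronal differentiation genes 19 were lower and 5 higher against wt at 9.5 dpc, with a median of -0.80, and 13 and 1 under all 5 scalings; without wt 9.5 dpc replicate 2 it was 17 and 3. For 17 of the 19, however, the Skp1aKO level was inside or above the range of the wt 9.0 dpc and wt PI libraries, and 1 lay below all 6 wt libraries. Against wt at 9.0 dpc 27 of the 34 were higher in Skp1aKO and 1 lower, with a median of 2.43, and against wt PI 12 were higher and 4 lower with a median of 0.53. These 3 comparisons share the Skp1aKO libraries.

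Nefl, the light neurofilament gene, had 24.5 and 9.91 CPM in Skp1aKO, 117 and 107 in wt at 9.5 dpc, 7.72 and 8.61 in wt at 9.0 dpc and 19.7 and 20 in wt PI. The Skp1aKO values fell on either side of wt PI, above wt at 9.0 dpc and far under wt at 9.5 dpc (-2.70 ± 0.36, adjusted p = 0.000421; -3.42 without Skp1aKO replicate 1). Map2, a dendritic microtubule gene, had 35.1 and 25.7 CPM against 104 and 111, with 14.8 and 19.7 at 9.0 dpc and 41.7 and 49 in wt PI (-1.82 ± 0.20). Isl1, a regulator of motor and sensory neurons, had 12.1 and 11.5 CPM against 38.8 and 48.3, with 9.31 to 16.6 in the other wt libraries (-1.89 ± 0.21). Gap43, a growth cone gene, was the exception that lay below all 6 wt libraries, with 40 and 22.7 CPM against 44.1 to 99.4 (-1.62 ± 0.23). Among genes with the widest gap of this kind were Dbx1, a progenitor regulator of the neural tube (3.75 and 2.7 CPM against 68.9 and 51.6, with 1.23 and 2.09 at 9.0 dpc and 9.98 and 9.05 in wt PI, -4.21 ± 0.27), and the neuropeptide gene Sst (6.62 and 4.73 against 46.4 and 72.4, with 0 and 0.116 at 9.0 dpc and 16.6 and 18.6 in wt PI, -3.39 ± 0.28). The replicates of Skp1aKO differed by more than those of wt for Nefl, Tubb3 and Elavl3 (46.4 and 25.2 CPM), replicate 1 being the higher in each. Phox2a, a regulator of noradrenergic and cranial motor neurons, went the other way with 3.97 and 4.5 CPM against 0 and 0.129 and at most 2.95 in the other wt libraries (5.21 ± 0.79, adjusted p = 4.75e-05).

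Neural progenitor genes were also mostly lower against wt at 9.5 dpc under TMM, as were 51.3% of protein-coding genes of at least 10 CPM. Of 20 tested members 12 were lower and 4 higher, with a median of -0.72, with 8 of the 12 high in wt at 9.5 dpc alone and 4 below all 6 wt libraries; 4 were lower and 0 higher under all 5 scalings. Fabp7, the radial glia gene for a lipid-binding protein, had 73.5 and 51.1 CPM in Skp1aKO, 1003 and 1001 in wt at 9.5 dpc, 98.8 and 97.2 in wt at 9.0 dpc and 185 and 214 in wt PI. Its log2 fold change was -4.01 ± 0.20 against wt at 9.5 dpc (adjusted p = 1.12e-08) and -0.65 ± 0.18 against wt at 9.0 dpc (adjusted p = 0.00549). Both Skp1aKO values lay below all 6 wt libraries. The wt PI libraries, also of 9.5 dpc, lay between Skp1aKO and the wt 9.5 dpc pair. Sox2 had 108 and 130 CPM against 219 and 170, with 104 to 116 in the other wt libraries (-0.71 ± 0.17), and Vim, an intermediate filament gene, 446 and 410 against 1244 and 1054, with 231 to 638 in the others (-1.42 ± 0.16). Id3, an inhibitor of neuronal bHLH factors, was like Fabp7 below all 6 wt libraries, with 193 and 171 CPM against 427 and 568 at 9.5 dpc and at least 774 elsewhere (-1.45 ± 0.19). Library totals gave 4 lower and 7 higher, so the direction of the group depended on the scaling, and with Skp1acont replicate 2 in the fit 5 were lower and 1 higher.

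**Figure D4:**
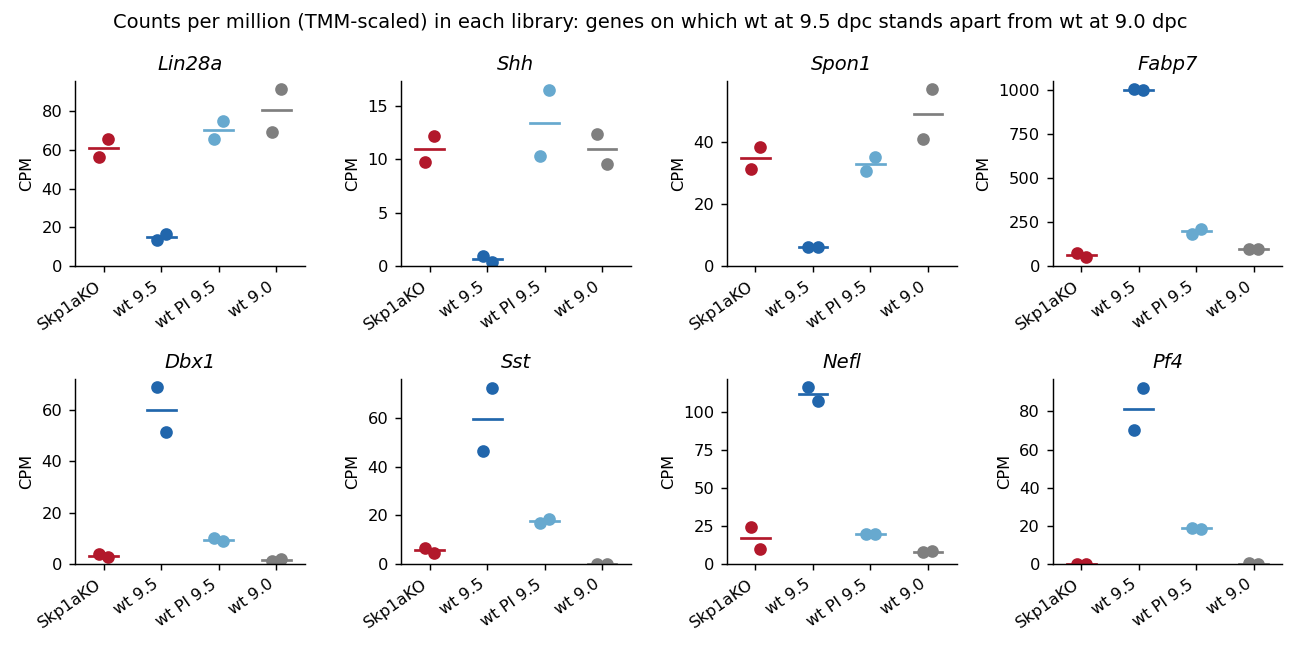
TMM-scaled CPM (vertical axis, linear, starting at 0) of 8 genes on which the 2 wt 9.5 dpc libraries stand apart from the 2 wt 9.0 dpc libraries; points are libraries and lines group means. The Skp1aKO points lie nearer to the wt 9.0 dpc or wt PI points than to wt at 9.5 dpc. The latter is lowest for Lin28a, Shh and Spon1 and highest for Dbx1, Sst, Nefl and Pf4. For Dbx1 and Sst wt PI lies between Skp1aKO and wt at 9.5 dpc. For Fabp7 wt at 9.5 dpc is high and Skp1aKO also lies below all wt points.

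Some genes of the ventral midline and of Hedgehog signalling showed the converse pattern, being low in wt at 9.5 dpc alone. Sonic hedgehog is secreted by floor plate cells, binds PTCH1 and acts through GLI factors to set ventral fates. Of 20 tested members 13 were higher and 1 lower against wt at 9.5 dpc, 7 and 1 under all 5 scalings, with a median of 1.43; GC and length offsets gave 9 higher and 3 lower and a median of 0.32. Among the 13, 6 were of the class low in wt at 9.5 dpc alone, and 4 lay above all 6 wt libraries. At least 10 CPM was reached by 9 members, 6 higher and 1 lower, beside 21.1% of protein-coding genes higher at that level. The other members were under 10 CPM, where 3458 of 6439 protein-coding genes were higher, with a median of 1.36. Against wt at 9.0 dpc the median was 0.41, with 8 higher and 4 lower. The ligand gene Shh had 9.71 and 12.2 CPM in Skp1aKO, 0.994 and 0.387 in wt at 9.5 dpc, 12.3 and 9.54 in wt at 9.0 dpc and 10.3 and 16.5 in wt PI. It was higher by 4.20 ± 0.44 on the log2 scale against wt at 9.5 dpc (adjusted p = 2.1e-06; 3.43 without wt 9.5 dpc replicate 2), and differed by 0.02 ± 0.30 from wt at 9.0 dpc (adjusted p = 0.955). Foxa2, the floor plate regulator, had 104 counts over both Skp1aKO libraries and 0 over both wt 9.5 dpc libraries. Taking 3 counts over the group as the upper limit for a count of 0, it was at least 41.6-fold higher, or at least 11.7-fold without wt 9.5 dpc replicate 2, while its 10.2 and 13.1 CPM lay beside 10.5 to 12.7 CPM in the other 4 wt libraries. Spon1, which encodes the floor plate protein F-spondin, had 31.3 and 38.5 CPM against 6.29 and 6.32, with 30.5 to 57.1 in the others (2.46 ± 0.22). The 3 genes were thus absent or low in wt at 9.5 dpc and present at like levels in Skp1aKO, wt at 9.0 dpc and wt PI.

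Downstream members differed from this. The receptor gene Ptch1, itself a target of the pathway, had 78.4 and 108 CPM against 68.6 and 67 (0.46 ± 0.18, adjusted p = 0.0366) but 113 to 146 CPM in the other wt libraries. Gli1, the target that reports pathway activity, had 5.08 and 5.85 CPM against 1.81 to 3.47 in the 6 wt libraries (1.37 ± 0.35) and 0.30 with GC and length offsets. Gli3, the main repressor of the pathway, was the lone member that fell, with 119 and 100 CPM against 245 and 314, and lay below all 6 wt libraries (-1.35 ± 0.18, adjusted p = 2.34e-05).

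Patterning genes of the midbrain, the isthmus and the forebrain moved in both directions. Of 39 tested members 17 were higher and 10 lower, 8 and 5 under all 5 scalings, with a median of 0.41; GC and length offsets gave 11 higher and 18 lower, so the group is given no direction. Pax5, of the midbrain-hindbrain boundary, had 43.3 and 54.5 CPM in Skp1aKO, 10.6 and 11.5 in wt at 9.5 dpc, 14.5 and 20.6 in wt at 9.0 dpc and 29.3 and 32.6 in wt PI, and lay above all 6 (2.14 ± 0.21, adjusted p = 1.7e-06). Fgf8, the signal of the isthmic organizer, had 2.21 and 3.6 CPM against 0.331 and 0.129 (3.79 ± 0.80), and Spry2, a feedback inhibitor that FGF signals induce, 239 and 125 against 41.7 and 42.9, with 49.3 to 62.8 in the other wt libraries (2.11 ± 0.28). En1 had 56.5 and 60.8 CPM against 21.2 and 27.8 (1.25 ± 0.18), but 46 to 64.9 in the other wt libraries, so that only wt at 9.5 dpc was low. Zic1 (61.8 and 54.9 CPM against 188 and 204, -1.75 ± 0.16) was lower. It lay between the 34.3 and 36.5 CPM of wt at 9.0 dpc and the 77.4 and 74.6 of wt PI. Meis2, a homeobox gene that Polycomb is known to regulate in the midbrain, had 93.6 and 84 CPM against 178 and 175 (-0.99 ± 0.15, adjusted p = 8.6e-05), and 67.9 and 72.5 at 9.0 dpc and 81.3 and 92.2 in wt PI. Against wt at 9.0 dpc Meis2 differed by 0.34 ± 0.15 (adjusted p = 0.0642). Lin28a, a heterochronic RNA-binding gene, had 56.3 and 65.3 CPM against 13.6 and 16.7, with 65.6 to 91.4 in the other wt libraries (1.99 ± 0.20, adjusted p = 1.44e-06), and -0.41 ± 0.18 against wt at 9.0 dpc (adjusted p = 0.0624).

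Stress genes moved in both directions. Of 30 tested members of the heat shock and ATF4 responses 17 were lower and 7 higher, 8 and 5 under all 5 scalings, with a median of -0.78; library totals gave 10 lower and 11 higher, and with Skp1acont replicate 2 in the fit 8 were lower and 2 higher. The chaperone genes that fell included Hspa5 of the endoplasmic reticulum (325 and 392 CPM against 749 and 964, -1.26 ± 0.18), Hsph1 (52.8 and 51.1 against 137 and 189, -1.65 ± 0.18) and Dnaja1 (200 and 227 against 676 and 859, -1.84 ± 0.21). Among those that rose was Slc7a11, the cystine carrier gene of the ATF4 and NRF2 programmes, with 37.1 and 35.6 CPM against 5.96 and 5.55 and at most 11 in the other wt libraries (2.66 ± 0.25, adjusted p = 7.84e-07). Atf4 itself had 120 and 106 CPM against 60.3 and 59.9, but up to 115 in wt PI (0.91 ± 0.17). Of 27 p53 target and apoptosis genes 11 were lower and 8 higher, 7 and 5 under all 5 scalings, and 7 and 12 with library totals. Tnfrsf10b, a death receptor gene, had 44.8 and 36.9 CPM against 5.3 and 4.26, and at most 13.6 in the other wt libraries (3.12 ± 0.26, adjusted p = 2.75e-07). Other targets fell, such as Ccng1 (19.4 and 24.3 CPM against 85.8 and 88.9, -2.0 ± 0.18) and Mdm2 (20.5 and 25 against 34.8 and 44.8, -0.81 ± 0.19). Trp53, which encodes p53, had 38.6 and 42.6 CPM against 26.5 and 31.4 (0.48 ± 0.18) and 67.3 to 94.4 in the other wt libraries.

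Markers of other cell types moved with the comparison. In bulk samples fewer cells of a type and less RNA per cell cannot be told apart. The summed level of 21 tested erythroid genes was 1504 and 1134 CPM in Skp1aKO and 8446 to 22810 in the 6 wt libraries, and 10 were lower and 3 higher, 9 and 1 under all 5 scalings. The embryonic globin gene Hbb-y had 268 and 171 CPM against 5855 and 8191, with 1465 and 1508 at 9.0 dpc (-5.0 ± 0.31), and Hba-x 385 and 332 against 2093 and 2829 (-2.78 ± 0.21). All their Skp1aKO values lay under every wt value. The erythroid regulators Gata1 (-0.52) and Klf1 (-0.60) and the haem synthesis gene Alas2 (-0.44) did not pass the test. The globin genes have near-identical copies, so reads could be split between them. Of 16 endothelial genes 8 were lower and 1 higher (5 lower without Skp1aKO replicate 1, 2 higher with lot as a block). Kdr, the VEGF receptor gene, had 13.7 and 15.3 CPM against 33.5 and 36.5 (-1.27 ± 0.18) and Cdh5 4.86 and 5.4 against 17.9 and 15.5 (-1.69 ± 0.24). Tie1, of the same cell type, was at 3.97 and 5.85 CPM against 0.662 and 0.645 (2.87 ± 0.46). Pecam1 had 1194 and 623 CPM against 345 and 87.5 (adjusted p = 0.182), and its level was the larger in lot 1 of every group.

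The summed level of 12 macrophage and platelet genes was 32.5 and 32.9 CPM in Skp1aKO, 115.6 and 133 in wt at 9.5 dpc, 5.56 and 10.1 in wt at 9.0 dpc and 27.8 and 31.4 in wt PI; 5 were lower, 4 of them high in wt at 9.5 dpc alone. Pf4, the platelet chemokine gene, had 2 counts over both Skp1aKO libraries and 930 over both wt 9.5 dpc libraries, a ratio of 388 (95% interval 107 to 3204, counting error only). Pf4 was the lone member with a mean of at least 10 CPM and made up most of the summed level in wt at 9.5 dpc. Its wt 9.0 dpc values were 0.309 and 0.116 CPM. Surface ectoderm genes summed to 64.9 and 60.3 CPM in Skp1aKO, 62.9 and 77.2 in wt at 9.5 dpc and 75.3 and 66.6 in wt PI. In wt at 9.0 dpc they summed to 272.6 and 304.2. Of 22 head mesenchyme and neural crest genes 8 were lower and 7 higher (2 and 11 with library totals), with Twist1 at 24.1 and 21.6 CPM against 42.1 and 33.4 (-0.72 ± 0.19). Of 14 heart and muscle genes 10 were higher and 0 lower, all but 2 of them above all 6 wt libraries. After background subtraction 2 of these were called and without wt 9.5 dpc replicate 2 there were 6, and the defining markers Myod1 and Nkx2-5 were not among the genes tested. Of 9 tested pluripotency genes 5 were higher and 1 lower (3 and 0 without wt 9.5 dpc replicate 2, 8 and 1 with lot as a block), while Pou5f1, Zfp42 and Dppa5a were not among the genes tested. The part of these cell types in the other results was not tested.

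The largest changes beyond all wt libraries that also held with library totals included genes of no list. Among increases, Xdh, which encodes xanthine dehydrogenase of purine breakdown, had 131 and 104 CPM in Skp1aKO, 4.97 and 3.74 in wt at 9.5 dpc and 4.07 to 6.65 in the other wt libraries (4.79 ± 0.27, adjusted p = 1.81e-08). Xdh was also at 50.6 CPM in Skp1acont replicate 1 and 57.3 CPM in Skp1acont PI replicate 1. Morc2b had 24.3 and 27.7 CPM against 0.331 and 0.904 (5.12 ± 0.39; 6.19 without wt 9.5 dpc replicate 2), and Il1f9, an interleukin-36 gene, 30.9 and 24.3 against 1.32 and 0.774 (4.82 ± 0.34). Others of the 10 were Cfap97d2, C130026I21Rik, the histone gene H2ac6 and the odorant receptor genes Olfr506, Olfr12 and Olfr149, with log2 fold changes from 4.54 for Olfr149 to 5.05 for Olfr506. Olfr genes are the kind of gene from which the background rate was read. Among decreases, Gm14305, a predicted gene, had 2.43 and 4.05 CPM against 74.5 and 83.6, with 50.2 to 84.6 in the other wt libraries (-4.60 ± 0.26, adjusted p = 1.66e-08). Acot13, a mitochondrial thioesterase gene, had 7.28 and 5.63 CPM against 101 and 121, with 51.4 to 64.9 in the others (-4.10 ± 0.21, adjusted p = 1.32e-08). Sostdc1, a secreted antagonist of BMP and Wnt signals, had 0.662 and 1.35 CPM against 13.2 and 21.6 (-4.11 ± 0.40), and Scg5, a secretory granule chaperone gene, 1.54 and 1.58 against 19.5 and 30.9 (-4.01 ± 0.32). The others were Hbb-bh1 (-5.08), Hbb-y (-5.0), Gm3055 (-4.56), Fabp7 (-4.01), Raet1e (-4.22; -5.97 and -3.36 without either Skp1aKO replicate) and the placental prolactin gene Prl8a2. Prl8a2 was at 160 and 30.5 CPM in wt at 9.5 dpc, with 0.736 to 2.33 in the other wt libraries, so its change was carried by the high wt 9.5 dpc values, and its adjusted p was 0.0522 and 0.0534 when either Skp1aKO replicate was left out, with log2 fold changes of -8.52 and -7.63.

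Near Skp1a itself, 21 genes within 1 Mb were tested, of which 12 were lower and 5 higher, 7 and 4 under all 5 scalings, with a median of -0.65; library totals gave 7 lower and 6 higher. At least 10 CPM was reached by 17 of the 21, of which 12 were lower and 4 higher. At that level 51.3% of all protein-coding genes were lower and 21.1% higher. The 12 lower genes all lay below all 6 wt libraries, as did 4666 of the 5359 genes called lower over all genes. Sar1b, of vesicle transport, had 28 and 28.1 CPM against 225 and 282 (-3.17 ± 0.19), a decrease larger than that of Skp1a (-2.19 ± 0.18), and Ube2b, a ubiquitin-conjugating enzyme gene, had 81.9 and 82.6 against 317 and 352 (-2.02 ± 0.16). Jade2, of a histone acetyltransferase complex, had 13.2 and 12.8 CPM against 1.32 and 1.81 (2.97 ± 0.37). No difference between these genes and the other genes was tested.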

How the data were processed

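RNA of mouse embryos was sequenced as poly(A)-selected libraries. The deposited table holds raw counts per gene for 11 of the 12 labelled libraries and 36255 genes; the tools named in the submitters' processing notes include Trim Galore 0.6.7, and the build is GRCm38. No aligner, counter or strand setting is named in what was used here, and values of overlapping, antisense or near-identical genes are therefore uncertain. The table pairs no sample with the second Skp1acont PI library, which was not analysed here. Library totals were 2320599 to 11607085 counts, and 3 counts, the limit that a count of 0 allows, came to 0.258 to 1.29 CPM; intervals cover counting error only, at 95%.

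From the counts, groups were compared with edgeR 4.0.16 (R 4.3.3): filterByExpr by group, TMM, a robust quasi-likelihood fit over 10 libraries without Skp1acont replicate 2, and Benjamini-Hochberg adjusted p-values over all 17019 genes, called at 0.05. SE is the log2 fold change divided by the root of F. Steps were tested on simulated data. The members and gene lists were chosen with earlier results of these data known, and the list of histone genes was extended to current symbols after the table was seen. Named genes were Skp1a, Ezh2, Eed, Suz12 and Meis2, the 10 largest increases and decreases beyond all wt libraries, the 5 largest each way set by wt at 9.5 dpc, up to 3 called members a list and direction with at least 10 CPM, and members named for their role; names past these rules were chosen after their values were seen. Alternatives were library totals, DESeq2 1.42.0 size factors and Wald test, other filters, fewer or more libraries, each library left out and lot as a block; background subtraction and GC and length offsets were added after seeing the data. Gene positions, gene types, transcript lengths and GC contents came from GENCODE (GRCm38). RefSeq served for gene synonyms and, on GRCm38.p6, for promoters. The titles give each replicate number as a lot, and deviations of same-numbered libraries from their group means correlated with r = 0.171 to 0.373 in all 6 pairs of groups, so lots may be shared batches; the reported fit has no block. Some genes that these rules name are not reported here.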

Additional observations from a re-analysis of the deposited data

How the results depend on the processing

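Against 6131 genes called higher and 5359 lower, the DESeq2 Wald test called 4038 higher, the fit with all 11 libraries 3985 higher, and library totals 3017 lower, of which 2413 lay below all wt libraries. Genes termed low in wt at 9.5 dpc alone numbered 149 with the Wald test and 100 with all 11 libraries. Those termed high in it alone numbered 268 and 209. Leaving out a library gave 4735 to 5592 higher and 4365 to 5245 lower, 4296 to 5222 above and 3923 to 4659 below all wt libraries, and 191 to 280 and 317 to 481 set by wt at 9.5 dpc, the 191 without wt 9.5 dpc replicate 1. With GC and length offsets the direction turned for Epop (-0.04), Cbx6 (-0.40), L3mbtl2 (-0.18), Msi1 (-0.03), E2f1 (-0.09), Pfkl (-0.34) and Col1a1 (-0.66), and with the replicate block added these were -0.04, -0.39, -0.15, -0.02, -0.06, -0.34 and -0.67. For Lin28b it turned with library totals (0.23) and with background subtracted (0.09). The cause was not tested. The fit with lot as a replicate block called 6727 higher and 5786 lower, with the biological coefficient of variation at 10.2% in place of 19.4%; the SCF, endothelial and pluripotency counts that it moved by over 1.5 times are given above, the call of Pfkl was lost (adjusted p = 0.0561), and no other named gene lost its call. Calls of 35 of 169 named genes were lost with all 11 libraries. Beside the genes whose direction turned, 15 lost their call with GC and length offsets and 2 with library totals. The main limits are 2 libraries a group, libraries that may not be separate embryos, and a Skp1aKO pair that stands apart from wt in background, makeup and length trend, which cannot be told apart from the genotype here.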

Other observations

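Gene groups that the comparisons above leave out moved in both directions. Of 41 spliceosome and RNA-binding genes 26 were lower and 6 higher in Skp1aKO against wt at 9.5 dpc (14 and 6 under all 5 scalings; 16 and 15 with library totals). Srsf7, a splicing regulator gene, had 270 and 339 CPM against 1288 and 1555 (-2.22 ± 0.18), while U2af2, which encodes the large subunit of the factor that reads the 3′ splice site, had 82.8 and 99.1 CPM against 24.5 and 20.9 (2.01 ± 0.18) and Srrm2, a scaffold gene of nuclear speckles, 249 and 259 against 66.2 and 61.2 (2.0 ± 0.15). Of 22 imprinted genes 14 were lower and 4 higher (8 and 1 under all 5 scalings; 8 and 8 with library totals). Ndn had 31.1 and 22.5 CPM against 90.4 and 93.7 (-1.78 ± 0.19), and Peg10, a retrotransposon-derived gene of the placenta, 34.2 and 41.4 against 3.97 and 6.07 (2.85 ± 0.37). Of 41 Wnt, FGF, Notch and BMP genes 15 were lower and 10 higher (9 and 4 under all 5 scalings; 9 and 19 with library totals; 5 higher without wt 9.5 dpc replicate 1). Tcf7, a transcription factor gene of the Wnt pathway, had 14.8 and 14.9 CPM against 44.4 and 61.4 (-1.84 ± 0.21), and Lfng, which encodes a glycosyltransferase that modifies Notch, 19 and 16.9 against 1.99 and 2.71 (2.86 ± 0.30). Of 21 glycolysis and hypoxia genes 8 were lower and 6 higher (1 and 3 under all 5 scalings; 2 and 11 with library totals; 5 lower without wt 9.5 dpc replicate 2). Ldha had 537 and 538 CPM against 899.6 and 1308, and 2421 to 3122 in the other wt libraries.

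Replication-dependent histone genes, whose transcripts end without a poly(A) tail, had 11 of 37 lower and 6 higher, 3 and 13 with GC and length offsets, and 6 and 4 without wt 9.5 dpc replicate 2. H2bc4 had 2.43 and 2.48 CPM against 23.2 and 32.9 (-3.52 ± 0.27), and H3c4 25.2 and 19.6 against 1.99 and 1.81 (3.56 ± 0.29). Of 58 zinc finger genes 28 were lower and 10 higher, and 19 and 18 with GC and length offsets; without Skp1aKO replicate 2 or wt 9.5 dpc replicate 2 the higher count was 6. Zfp958 had 1.77 and 2.93 CPM against 23.8 and 26.7, with 22.4 to 29.5 in the other wt libraries (-3.42 ± 0.27), and Zfp951 17.2 and 16.7 against 6.62 and 7.23 (1.28 ± 0.24). Members of both families share sequence, so their counts are uncertain. Of 10 tested placental and decidual genes 3 were lower (1 without Skp1aKO replicate 1) and 3 higher; Psg23 had 24.1 and 21.6 CPM against 2.98 and 1.81 (3.34 ± 0.38). Of 10 yolk sac and gut endoderm genes 3 were lower and 4 higher (2 without wt 9.5 dpc replicate 2). Of 6 pigment cell genes 5 were higher and 1 lower, and leaving out Skp1aKO replicate 2 or wt 9.5 dpc replicate 2 gave 1 higher. The lower member, the melanosome exchanger gene Slc24a5, had 0 and 0.901 CPM in Skp1aKO against 64.6 and 67.4 in wt at 9.5 dpc and 56.2 to 92.8 in the other wt libraries. Snhg11, the lone long noncoding host gene of its list that could be tested, was higher (94.5 and 90.5 CPM against 43.7 and 48.3, 1.0 ± 0.16).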
